A study of Mus musculus with 12 samples.

Results

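The genes described are 40 interferon-stimulated genes, taken as the rows of the expression table whose gene name stands in a list of well-known members of the type I interferon response. All 40 were found among 55487 genes, and all 40 passed the limit on low values of at least 1 TPM in at least 3 libraries, together with 16016 genes in all. Poly(A) RNA was sequenced from 12 libraries of cultured mouse cochlear glial cells, with 3 libraries labelled as biological replicates in each of 4 groups. Every group began as spheres grown from the modiolus and spiral ganglia of mice of a mixed C57Bl6 and FVB/N background, at postnatal day 4 by the sample characteristics, with 6 to 8 mice to a dissection and no selection for a cell type. The sphere group stayed in SCM, a DMEM/F12 medium with EGF (20 ng/ml), bFGF (10 ng/ml), IGF (50 ng/ml) and heparan sulfate (50 ng/ml). Cells of the SCDM group were plated on poly-L-ornithine and laminin in DMEM/F12 with the neurotrophins BDNF and NT3 (each at 50 ng/ml). The SCDM/FGF group received bFGF at 100 ng/ml on top of that. The FIBCL group was kept in Neurobasal medium with bFGF, which the labels enter both at 50 and at 100 ng/ml, and received LIF at 1000 U/ml. Its small molecules were Forskolin and ISX9 at 20 μM each, Chir99021 at 10 μM and I-BET at 1 μM. Forskolin activates adenylyl cyclase, I-BET blocks the BET bromodomain proteins, Chir99021 inhibits the kinase GSK3 and LIF is a cytokine that signals through STAT3. The labels give 14 days in the differentiation media, all of which held B27 and N2. The base medium, the neurotrophins, LIF and the small molecules differed together between FIBCL and both SCDM media, and against SCDM bFGF did too. Against the spheres, the base medium, the growth factors, LIF, the small molecules and the time in a differentiation medium differed together. The parts of these cannot be told apart. In the table these libraries are headed FIBC, a name that the study also gave to the mix lacking LIF. They were read as FIBCL, since no other group in the labels could take that heading.

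Type I interferons bind a receptor made of the IFNAR1 and IFNAR2 chains, whose kinases set off the assembly of a transcription factor complex. This complex, of which STAT2 and IRF9 are parts, binds the interferon-stimulated response element (ISRE) of target genes, and interferon gamma acts through a different element, the gamma-activated site (GAS). The targets encode antiviral proteins that sense viral RNA, block translation, degrade RNA or bar virus entry, and several of them, among them IRF7 and the RNA sensors, feed back on the response. Macrophages, which reside in the spiral ganglion, keep many of these genes at a tonic level.

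The members were put together as targets of 1 pathway, and the promoters that carry its element, the ISRE core, are shown for that reason. RefSeq promoters of GRCm38.p6, from 250 bases before to 50 bases after each start, were given for 31 of the 40 members, and Dhx58, Zbp1, Usp18, Oas2, Mx1, Mx2, Ifi27, Rtp4 and Parp14 had no entry in the table. The ISRE core GAAANNGAAA, searched on both strands with N as any base, stood in 18 of the 31 members (58.1%), against 1079 of 27025 genes with a promoter in the table (3.99%). The GAS letters TTCNNNGAA stood in 10 of the 31 members (32.3%) and in 9.55% of all these genes. Over all promoters, 24 ISRE matches overlapped a GAS match. The stretches below are those of the members with the largest fold changes of scaled TPM + 1 among those with a core before the start, with the core in capitals, written 5′ to 3′ on the strand of the gene, so that a core on the opposite strand begins with TTTC. In Gbp2 the core before the RefSeq start lay inside the annotated gene body, and it is not shown.
Isg15, chr4:156200850-156200921, minus strand, 3 overlapping cores: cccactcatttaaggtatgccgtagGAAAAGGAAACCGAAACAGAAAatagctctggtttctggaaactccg.
Ifit3, chr19:34583348-34583441, plus strand, 2 cores: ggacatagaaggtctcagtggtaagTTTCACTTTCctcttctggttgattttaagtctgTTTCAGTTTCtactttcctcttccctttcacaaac.
Ifit3b, chr19:34607744-34607837, plus strand, 2 cores: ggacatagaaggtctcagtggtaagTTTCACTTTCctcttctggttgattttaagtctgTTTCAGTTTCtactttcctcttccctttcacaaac.
Ifit1, chr19:34640760-34640838, plus strand, 2 cores: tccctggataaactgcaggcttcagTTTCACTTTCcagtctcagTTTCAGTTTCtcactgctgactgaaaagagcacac.
Gbp7, chr3:142530258-142530317, plus strand, 1 core: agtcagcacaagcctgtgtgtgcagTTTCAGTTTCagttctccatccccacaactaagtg.
Gbp3, chr3:142559974-142560025, plus strand, 2 overlapping cores: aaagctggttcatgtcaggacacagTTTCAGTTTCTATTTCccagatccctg.
Bst2, chr8:71537562-71537627, minus strand, 2 overlapping cores: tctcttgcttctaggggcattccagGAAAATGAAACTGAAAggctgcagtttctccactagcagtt.
Trim30a, chr7:104465195-104465254, minus strand, 1 core: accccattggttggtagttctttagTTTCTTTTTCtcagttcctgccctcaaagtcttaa.
The stretches of Ifit3 and Ifit3b, which lie in the same gene cluster on chromosome 19, were identical over all 94 bases. In Ifih1, Ddx58, Eif2ak2 and Ifitm3 the core was found only in the bases after the start. A match is a description of these letters and was not tested as a site of binding.

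Levels are given as scaled TPM, which are the deposited TPM values (transcripts per 1e6) multiplied by 1 factor per library, so that the genes well expressed in every library are centred on the same level. TPM is per transcript length, so levels of different genes can be set side by side, but it does not keep read numbers and the depth of the libraries is unknown. Differences are log2 fold changes of scaled TPM + 1 with their standard errors from limma, a scale that understates the change of genes at low levels. A member was called changed at an adjusted p under 0.05, adjusted over all genes tested (16016), and a log2 fold change of 1 or more in either direction. The p-values and intervals rest on 1 estimate per gene of the spread between libraries of the same group, pooled over all 4 groups. A comparison thus also carries the spread of groups outside it. The labels call the libraries biological replicates without saying whether they came from separate mice or cultures. In bulk RNA, fewer cells of a type and less RNA per cell cannot be told apart.

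Between 21625 and 22281 genes were above 0 in each library. The glial markers were present in the spheres (10 genes with a summed level of 599 to 625 scaled TPM), lower in SCDM (204 to 237) and SCDM/FGF (205 to 230), and near absent in FIBCL (17.4 to 23.8), in which all 10 were lower than in the spheres and 9 of 10 lower than in SCDM. Of 11 tested neuron markers, 10 were higher and 1 lower in FIBCL than in SCDM, and their list summed to 614 to 639 scaled TPM in FIBCL against 106 to 221 in the other groups.

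The interferon-stimulated genes were lower in FIBCL than in both control media and than in the spheres. Against SCDM, 35 of the 40 members were lower and 0 higher, while 16.2% of all tested genes were called lower and 13.2% higher. Against SCDM/FGF, 34 were lower and 0 higher, beside 15.8% lower and 12.0% higher among all genes. Against the spheres, 27 were lower and 0 higher, where the shares of all genes were 15.5% and 12.5%. The median log2 fold change over the 40 members was -2.35 against SCDM, -1.98 against SCDM/FGF and -1.75 against spheres, and over all tested genes it was -0.07, -0.05 and -0.06. For all 40 members every FIBCL library lay below the lowest SCDM library, as it did for 40.7% of all genes. These 3 comparisons share the FIBCL libraries and are not independent of each other. Oas1a, Oas2, Oas3, Oasl1, Rsad2 and Trim30a passed the limit on low values only with the help of SCDM and SCDM/FGF libraries. Their calls against those groups are in the counts but lend no weight of their own.

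Most members were at low levels in FIBCL. The mean was under 1 scaled TPM for 22 of the 40 members in FIBCL, 6 in the spheres, 1 in SCDM/FGF and 0 in SCDM. The highest of the 4 group means was that of SCDM for 26 members, of SCDM/FGF for 11 and of the spheres for 3, while FIBCL had the lowest mean for 38 members and the spheres for the other two, Bst2 and Oas1a. The levels of all members are shown in the plot of members by library.

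**Figure D1:**
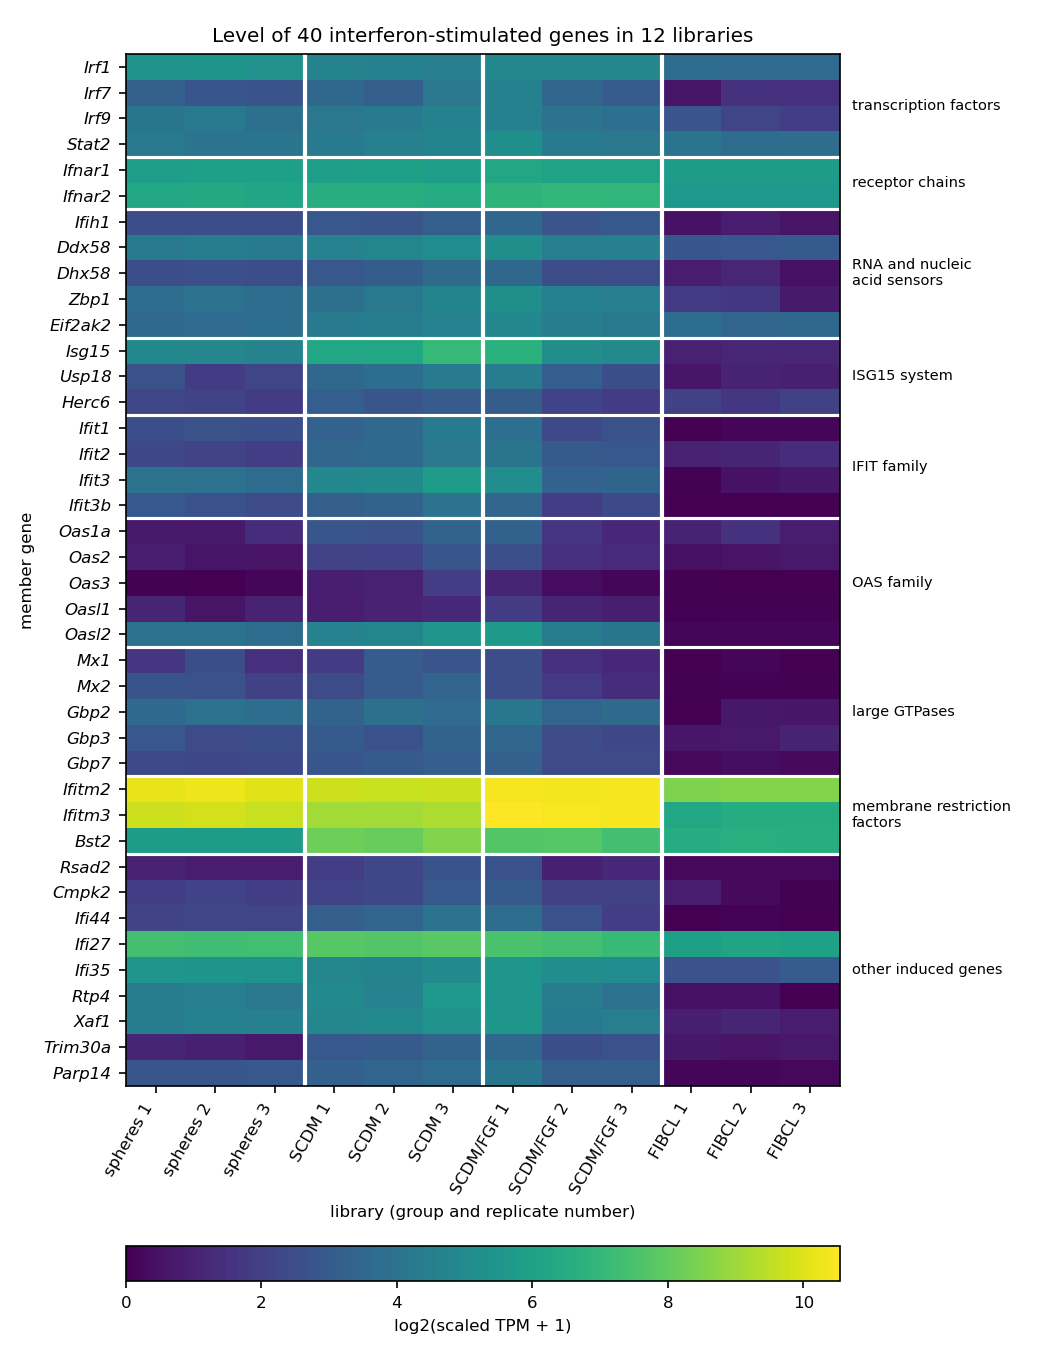
Level of each of the 40 members (rows, grouped by role) in each of the 12 libraries (columns), as log2(scaled TPM + 1) on the colour scale. The 3 FIBCL columns are dark for most rows, 22 members having a mean under 1 scaled TPM there, and the first SCDM/FGF library is brighter than the other two in 36 of 40 rows.

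Levels of markers of other cell types moved between the same groups. The 16 macrophage markers summed to 2142 to 2351 scaled TPM in SCDM and 2425 to 2626 in SCDM/FGF, but to 189 to 239 in the spheres and 203 to 238 in FIBCL, and 14 of the 16 were lower in FIBCL than in SCDM. In FIBCL most of that sum was Cd68, a lysosomal protein, at 152, 177 and 165, which was higher there than in the spheres, with a log2 fold change of 2.14 ± 0.09 (SE, adjusted p = 1.7e-09). Without Cd68 the other 15 markers summed to 50.8 to 61.4 in FIBCL and 155 to 197 in the spheres, 8 being lower in FIBCL and 0 higher, a sum formed after its values were seen. In FIBCL, Cd14 was at 18.4, 20.1 and 18.6 scaled TPM, above its 13.2, 15.4 and 14.3 in the spheres, and Tyrobp at 9.76, 14.98 and 13.9, Laptm5 at 8.35, 8.78 and 7.73, Trem2 at a mean of 7.86 ± 1.46 (SD, n = 3) and Adgre1 at 3.10, 3.68 and 3.38 were also measurable. Among the lowest of the 16 in FIBCL, C1qa, C1qb, C1qc, Csf1r, Itgam and Mrc1 were each under 1 scaled TPM in every FIBCL library, and Cx3cr1 was listed at 0, 0.11 and 0. The 10 mesenchyme markers summed to 220 to 235 in FIBCL, against 5916 to 6154 in SCDM, 5398 to 5763 in SCDM/FGF and 2682 to 2727 in the spheres, with 8 lower and 2 higher in FIBCL than in SCDM. The 7 endothelial markers summed to 13.6 to 14.3 in FIBCL, with 1 higher and 2 lower than in SCDM, against 109 to 112 in the spheres, 44.0 to 52.0 in SCDM and 267 to 306 in SCDM/FGF. Of the 9 lymphocyte markers only Cd4 passed the limit on low values, and the list summed to at most 19.2 in any library. The part of these cell types in the levels of the members was not tested.

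**Figure D2:**
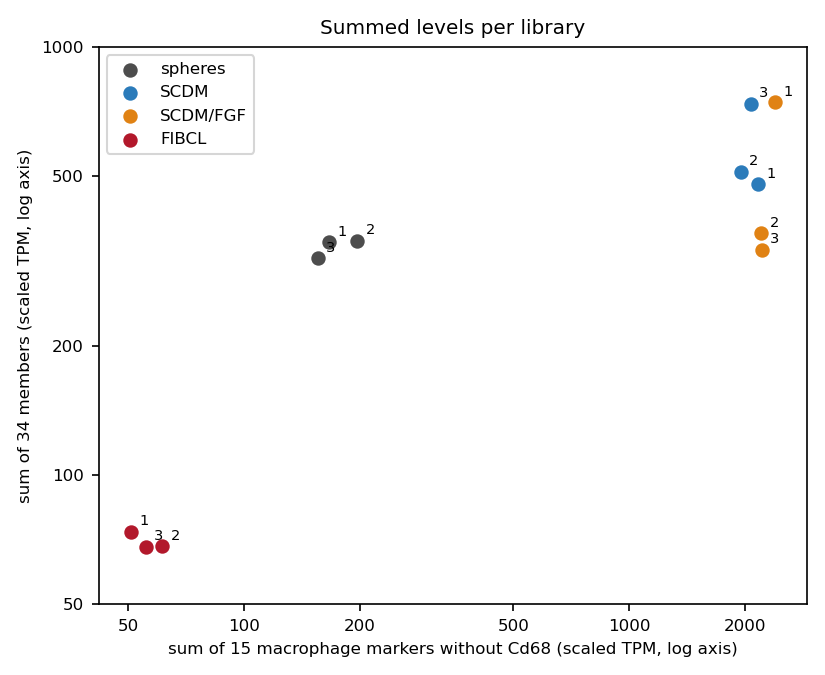
Summed scaled TPM of 34 members (y, log axis, leaving out Ifitm2, Ifitm3, Bst2, Ifi27, Ifnar1 and Ifnar2, which make up most of the total) against the summed scaled TPM of 15 macrophage markers (x, log axis, without Cd68), with 1 point per library and the replicate number beside it. The sums of members are 68.1 to 73.8 in FIBCL, 321 to 353 in the spheres, 479 to 737 in SCDM and 336 to 744 in SCDM/FGF. The macrophage sums are 50.8 to 61.4, 155 to 197, 1951 to 2161 and 2202 to 2388 in the same order.

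Over these 34 members, the summed level was 68.1 to 73.8 scaled TPM in FIBCL, against 479 to 737 in SCDM, 336 to 744 in SCDM/FGF and 321 to 353 in the spheres. In the same order, the macrophage markers without Cd68 summed to 50.8 to 61.4, 1951 to 2161, 2202 to 2388 and 155 to 197. The sums of members in SCDM/FGF libraries 2 and 3, 367 and 336, were close to those of the spheres. Those of the first SCDM/FGF library (744) and of the SCDM libraries were above them. The part of macrophages in these sums was not tested.

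On the log2(scaled TPM + 1) scale the ISG15 system held the largest fold change against SCDM. Isg15, a ubiquitin-like protein that is conjugated to other proteins after interferon, stood at 0.981, 1.21 and 1.21 scaled TPM in FIBCL, against 79.2, 79.1 and 134 in SCDM, 105, 36.02 and 31.8 in SCDM/FGF and 29.6, 28.4 and 25.2 in the spheres. Its FIBCL libraries lay far below every other library, and the third SCDM and the first SCDM/FGF library were the highest. The log2 fold change in FIBCL was -5.48 ± 0.37 (SE, adjusted p = 8.4e-08) against SCDM and -3.75 ± 0.37 (SE, adjusted p = 2.6e-06) against spheres. The added 1 sets this rank: as a ratio of mean scaled TPM, SCDM was 86.04-fold above FIBCL for Isg15, but 381-fold for Ifi44, 269-fold for Oasl2 and 197-fold for Ifit1, with FIBCL levels near 0. Usp18, the protease that removes ISG15 and dampens receptor signalling, stood at 0.538, 1.03 and 0.880 scaled TPM in FIBCL, against 10.7, 13.2 and 19.2 in SCDM, 20.8, 7.98 and 4.78 in SCDM/FGF and 5.11, 2.71 and 3.56 in the spheres. It was lower in FIBCL, with a log2 fold change of -3.05 ± 0.40 (SE, adjusted p = 3.3e-05) against SCDM, with no overlap with any other group. Herc6, the mouse ligase for ISG15, had means of 2.84 ± 0.474, 6.92 ± 1.01, 4.54 ± 2.69 and 3.26 ± 0.666 scaled TPM (SD, n = 3) in FIBCL, SCDM, SCDM/FGF and spheres. It passed the limits only against SCDM (log2 fold change -1.05 ± 0.27 SE, adjusted p = 0.0045), and its difference against spheres was -0.14, with a 95% interval of -0.74 to 0.45.

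The IFIT family includes proteins that bind foreign RNA and block translation. All 4 of its members here fell in FIBCL against SCDM and SCDM/FGF. Ifit3 was at 0.0479, 0.419 and 0.591 scaled TPM in FIBCL, against 29.3, 30.6 and 53.5 in SCDM, 34.996, 8.92 and 9.49 in SCDM/FGF and 14.4, 14.5 and 11.7 in the spheres. Ifit1 was at 0, 0.0985 and 0.105 scaled TPM in FIBCL, against 8.90, 11.1 and 19.995 in SCDM, 13.4, 3.97 and 5.13 in SCDM/FGF and 4.77, 5.04 and 4.94 in the spheres. Both were under 1 scaled TPM in each FIBCL library and at least 3.97 in every other. The log2 fold change against SCDM was -4.81 ± 0.43 (SE, adjusted p = 1e-06) for Ifit3 and -3.67 ± 0.36 (SE, adjusted p = 2.3e-06) for Ifit1. Ifit3b was listed at 0 in all 3 FIBCL libraries, against 8.09, 9.24 and 15.1 in SCDM, 10.1, 2.75 and 4.15 in SCDM/FGF and 6.42, 5.23 and 4.37 in the spheres, so no fold is given. Of the 100-base windows of Ifit3 transcripts, 31.7% also occur in Ifit3b and 27.4% of those of Ifit3b occur in Ifit3, and the split of reads between them is uncertain. Ifit2 was at 0.981, 1.13 and 1.56 scaled TPM in FIBCL, against 10.3, 11.6 and 17.3 in SCDM, 15.7, 6.86 and 6.48 in SCDM/FGF and 3.90, 3.46 and 2.92 in the spheres. Its log2 fold change was -2.63 ± 0.28 (SE, adjusted p = 5.6e-06) against SCDM, and its change of -0.99 ± 0.28 (SE, adjusted p = 0.0082) against spheres missed the limit on size by little.

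**Figure D3:**
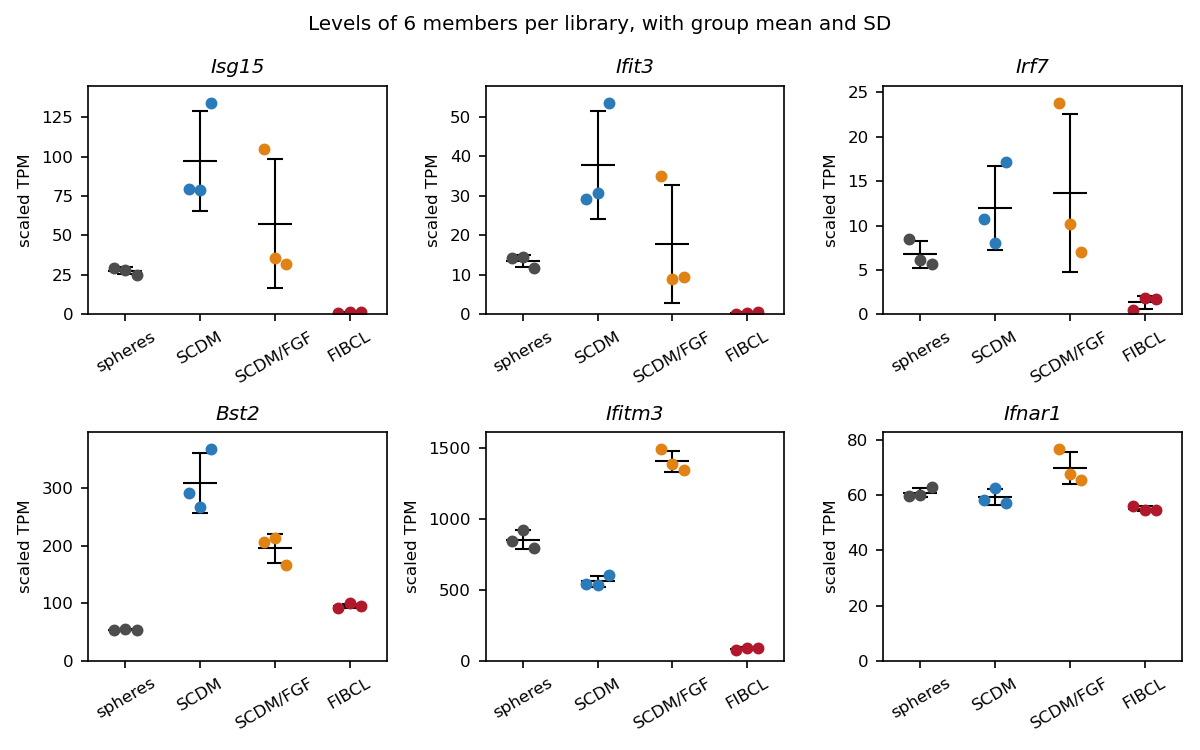
Levels in scaled TPM (y, linear axes from 0) of Isg15, Ifit3, Irf7, Bst2, Ifitm3 and Ifnar1 in the 4 groups (x), with 1 point per library and black bars for the group mean and SD (n = 3). Isg15, Ifit3 and Irf7 are lowest in FIBCL and spread widely in SCDM/FGF, Bst2 is lowest in the spheres, Ifitm3 is highest in SCDM/FGF, and Ifnar1 stays between 54.7 and 76.6 in all libraries.

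The OAS family includes enzymes that make oligoadenylates on double-stranded RNA and so activate RNase L, which cuts RNA. Oasl2, the most abundant of them, was at 0.132, 0.135 and 0.092 scaled TPM in FIBCL, against 24.2, 27.7 and 44.7 in SCDM, 50.8, 20.5 and 16.2 in SCDM/FGF and 14.7, 14.5 and 12.4 in the spheres. It was under 0.2 scaled TPM in each FIBCL library and above 12 in every other, and the difference from SCDM was -4.84 ± 0.34 (SE, adjusted p = 1.4e-07). The remaining 4 were low in all groups, with SCDM means of 6.99 ± 2.05 for Oas1a, 4.27 ± 1.47 for Oas2, 1.53 ± 1.07 for Oas3 and 1.06 ± 0.247 scaled TPM for Oasl1 (SD, n = 3). All 5 were called lower in FIBCL than in SCDM, 3 lower than in SCDM/FGF and 1, Oasl2, lower than in the spheres. Of all genes, 16.2%, 15.8% and 15.5% were called lower in these comparisons, so the count against the spheres is near that share. Oas1a, Oas2, Oas3 and Oasl1 passed the limit on low values only with the help of SCDM and SCDM/FGF libraries. Their calls against those groups lend no weight of their own. Oas1a, Oas2 and Oas3 were about as low in the spheres as in FIBCL, with log2 differences of 0.15 (95% interval -0.84 to 1.14), -0.05 (-0.71 to 0.62) and -0.06 (-0.68 to 0.55). Oas1a was at 1.06, 1.82 and 0.736 scaled TPM in FIBCL, against 6.08, 5.56 and 9.34 in SCDM, 8.59, 2.11 and 1.25 in SCDM/FGF and 0.644, 0.708 and 1.64 in the spheres. Of the 100-base windows of Oas1a, 40.9% also occur in Oas1g, so that its level is uncertain, and the sign of its difference from the spheres changed when the TPM were not rescaled.

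The large GTPases comprise the Mx proteins, which trap viral ribonucleoproteins, and the guanylate-binding proteins, which attack the membranes of intracellular pathogens. All 5 were lower in FIBCL in each of the 3 comparisons. Gbp2 was at 0, 0.616 and 0.565 scaled TPM in FIBCL, against 9.12, 13.8 and 11.98 in SCDM, 16.4, 9.75 and 11.6 in SCDM/FGF and 11.1, 14.2 and 12.4 in the spheres. Gbp7 was at 0.156, 0.320 and 0.197 scaled TPM in FIBCL, against 6.14, 6.91 and 7.98 in SCDM, 8.49, 4.31 and 4.26 in SCDM/FGF and 4.06, 3.86 and 4.07 in the spheres. The spheres, SCDM and SCDM/FGF overlapped for Gbp2, whereas FIBCL was lower, with a log2 fold change of -3.31 ± 0.22 (SE, adjusted p = 1.1e-07) against spheres. Gbp3 followed with 0.550, 0.628 and 0.985 scaled TPM in FIBCL, against 6.83, 5.32 and 9.34 in SCDM, 10.01, 4.27 and 3.83 in SCDM/FGF and 6.35, 4.42 and 4.73 in the spheres. Mx2, which the annotation lists as a polymorphic pseudogene, was at 0.0359, 0.0369 and 0.0394 scaled TPM in FIBCL, against 4.36, 7.11 and 9.93 in SCDM, 4.68, 2.46 and 1.61 in SCDM/FGF and 5.71, 5.16 and 3.23 in the spheres. Mx1 was at 0, 0.123 and 0.0131 scaled TPM in FIBCL, against 2.60, 7.18 and 5.85 in SCDM, 4.57, 1.65 and 1.25 in SCDM/FGF and 2.17, 4.84 and 1.65 in the spheres. Mx1 varied more than 2-fold within the spheres and within SCDM, and it was lower in FIBCL than in SCDM, with a log2 fold change of -2.49 ± 0.40 (SE, adjusted p = 0.00015). Gbp7, Gbp3 and Gbp2 lie close together on chromosome 3, and Mx1 and Mx2 on chromosome 16.

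Among the nucleic acid sensors, 4 of 5 were lower in FIBCL in each comparison. Ddx58, which encodes the RNA sensor RIG-I, was at 6.08, 6.28 and 6.99 scaled TPM in FIBCL, against 24.7, 27.3 and 34.1 in SCDM, 35.7, 22.5 and 23.003 in SCDM/FGF and 17.9, 20.2 and 19.3 in the spheres. Ifih1, which encodes MDA5, a sensor of long double-stranded RNA, was at 0.419, 0.751 and 0.486 scaled TPM in FIBCL, against 6.20, 5.92 and 8.13 in SCDM, 10.5, 5.89 and 6.49 in SCDM/FGF and 4.71, 4.58 and 4.80 in the spheres. Dhx58, the regulator LGP2, was at 0.754, 1.19 and 0.407 scaled TPM in FIBCL, against 6.30, 7.51 and 11.6 in SCDM, 10.7, 4.61 and 4.38 in SCDM/FGF and 4.76, 4.97 and 4.75 in the spheres. For all of these, FIBCL lay below every other library, with log2 fold changes of -1.99 ± 0.16, -2.31 ± 0.18 and -2.39 ± 0.29 (SE) against SCDM. Zbp1, a sensor of Z-form nucleic acids that can start necroptosis, was at 2.50, 2.27 and 0.696 scaled TPM in FIBCL, against 13.8, 18.1 and 26.2 in SCDM, 37.3, 23.6 and 21.6 in SCDM/FGF and 12.5, 14.7 and 12.7 in the spheres. It fell with a log2 fold change of -2.88 ± 0.30 (SE, adjusted p = 4.3e-06) against SCDM. Eif2ak2, the kinase PKR that halts translation on double-stranded RNA, was the exception with 13.03, 9.70 and 10.6 scaled TPM in FIBCL, against 19.96, 21.4 and 24.4 in SCDM, 29.1, 20.4 and 18.002 in SCDM/FGF and 11.5, 11.7 and 12.8 in the spheres. Its difference of -0.92 ± 0.16 (SE, adjusted p = 0.00025) from SCDM was under the limit on size, and that from the spheres was -0.11 (95% interval -0.46 to 0.24). Without rescaling, Eif2ak2 was past both limits against SCDM (-1.29) and SCDM/FGF (-1.22), beside medians of all genes of -0.40 and -0.31.

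The transcription factors of the pathway were divided. Irf7, which amplifies interferon production, was at 0.503, 1.85 and 1.72 scaled TPM in FIBCL, against 10.8, 8.02 and 17.2 in SCDM, 23.8, 10.2 and 7.03 in SCDM/FGF and 8.48, 6.14 and 5.70 in the spheres. Its log2 fold change was -2.46 ± 0.40 (SE, adjusted p = 0.00019) against SCDM, and its first SCDM/FGF library was the highest of all. Irf9, the DNA-binding part of the ISRE complex, was at 5.86, 3.67 and 2.86 scaled TPM in FIBCL, against 16.9, 20.2 and 24.1 in SCDM, 23.9, 15.3 and 13.3 in SCDM/FGF and 16.1, 18.4 and 13.98 in the spheres. It fell with a log2 fold change of -2.09 ± 0.24 (SE, adjusted p = 1e-05) against SCDM. Stat2, its partner, was at 15.6, 12.4 and 12.6 scaled TPM in FIBCL, against 19.8, 23.3 and 26.3 in SCDM, 37.2, 20.02 and 17.4 in SCDM/FGF and 18.5, 15.3 and 15.8 in the spheres. With -0.73 ± 0.23 (SE, adjusted p = 0.013) against SCDM it did not reach the limit on size in any comparison. Without rescaling, Stat2 was past both limits against SCDM (-1.10) and SCDM/FGF (-1.05), beside medians of all genes of -0.40 and -0.31. Irf1, which interferon gamma induces, was highest in the spheres, at 12.7, 11.8 and 11.96 scaled TPM in FIBCL, against 25.4, 23.5 and 21.7 in SCDM, 29.1, 29.5 and 28.3 in SCDM/FGF and 40.8, 42.6 and 39.7 in the spheres. It was called lower in FIBCL than in the spheres (log2 fold change -1.67 ± 0.06 SE, adjusted p = 4.8e-10) and than in SCDM/FGF (log2 fold change -1.19 ± 0.06 SE, adjusted p = 8.5e-09), while its difference of -0.89 ± 0.06 (SE) from SCDM was under the limit. Without rescaling, the Irf1 difference from SCDM was -1.27, past both limits.

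Of the roles, the receptor chains had the smallest median log2 fold change against SCDM (-0.50). Ifnar1 was at 56.1, 54.7 and 54.7 scaled TPM in FIBCL, against 58.4, 62.7 and 57.3 in SCDM, 76.6, 67.6 and 65.5 in SCDM/FGF and 59.9, 60.2 and 62.9 in the spheres. Its difference between FIBCL and SCDM was -0.11 with a 95% interval of -0.23 to 0.02, and without rescaling it was -0.50 (adjusted p = 8.2e-05), beside a median of all genes of -0.40. Ifnar2 was at 48.8, 48.5 and 48.9 scaled TPM in FIBCL, against 93.2, 92.8 and 87.5 in SCDM, 114, 127 and 122 in SCDM/FGF and 79.96, 81.2 and 74.7 in the spheres. Every FIBCL library was below all the others. Ifnar2 was called lower in FIBCL against SCDM/FGF (log2 fold change -1.29 ± 0.05 SE, adjusted p = 6.1e-10), while its log2 fold changes of -0.89 ± 0.05 (SE, adjusted p = 1.5e-08) against SCDM and -0.68 ± 0.05 (SE, adjusted p = 1.7e-07) against spheres were under the limit on size. Without rescaling these were -1.28 and -1.21, past both limits, and the Ifnar1 difference between FIBCL and spheres was -0.68, beside a median of all genes of -0.51.

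The membrane restriction factors were the most abundant members. Ifitm2 and Ifitm3, which bar virus entry at membranes, made up 74.3% of the summed mean level of the 40 members in the spheres and 59.3% in FIBCL, with 52.6% in SCDM and 72.7% in SCDM/FGF. Ifitm3 was at 76.98, 91.3 and 89.97 scaled TPM in FIBCL, against 541, 534 and 607 in SCDM, 1489.5, 1387 and 1344 in SCDM/FGF and 844, 924 and 795 in the spheres. The libraries of each group lay close together and no groups overlapped, with FIBCL lowest and SCDM/FGF highest. Ifitm3 fell in FIBCL with log2 fold changes of -2.69 ± 0.08 (SE, adjusted p = 8.9e-11) against SCDM and -4.02 ± 0.08 (SE, adjusted p = 4.3e-12) against SCDM/FGF. Ifitm2 was at 366, 384 and 387 scaled TPM in FIBCL, against 852, 812 and 833 in SCDM, 1348, 1320.0 and 1365 in SCDM/FGF and 1175, 1243 and 1073 in the spheres. Its log2 fold change was -1.13 ± 0.05 (SE, adjusted p = 2.8e-09) against SCDM. Since 34.9% of its 100-base windows occur in other annotated genes, its level is uncertain.

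Bst2, which encodes tetherin and holds budding virus at the cell surface, went a way of its own against the spheres. It was at 92.2, 100.1 and 94.7 scaled TPM in FIBCL, against 292, 269 and 368 in SCDM, 207, 214 and 167 in SCDM/FGF and 53.6, 55.3 and 54.5 in the spheres. FIBCL was below SCDM (log2 fold change -1.67 ± 0.11 SE, adjusted p = 9.2e-08) and SCDM/FGF (log2 fold change -1.02 ± 0.11 SE, adjusted p = 7.5e-06), but above every sphere library, with a log2 fold change of 0.80 ± 0.11 (SE, adjusted p = 5.6e-05), which is under the limit on size. When the TPM were not rescaled, this difference was 0.26 (adjusted p = 0.058).

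All 9 remaining members were lower in FIBCL than in SCDM and than in SCDM/FGF. Rtp4, a chaperone of receptors, was at 0.371, 0.419 and 0 scaled TPM in FIBCL, against 31.5, 24.8 and 47.7 in SCDM, 44.8, 20.2 and 14.1 in SCDM/FGF and 20.9, 21.9 and 16.9 in the spheres. Xaf1, an inhibitor of the apoptosis inhibitor XIAP, was at 0.873, 1.11 and 0.749 scaled TPM in FIBCL, against 28.2, 31.9 and 40.4 in SCDM, 46.3, 19.4 and 21.997 in SCDM/FGF and 20.7, 23.7 and 22.9 in the spheres. Both were under 1.2 scaled TPM in each FIBCL library and above 14 in every other, with log2 fold changes of -4.79 ± 0.35 (SE, adjusted p = 2.2e-07) and -4.16 ± 0.26 (SE, adjusted p = 4.6e-08) against SCDM. Parp14, an ADP-ribosyltransferase, was at 0.144, 0.148 and 0.184 scaled TPM in FIBCL, against 8.35, 9.92 and 11.9 in SCDM, 15.9, 8.20 and 8.16 in SCDM/FGF and 6.17, 6.05 and 6.54 in the spheres. Ifi44 was at 0, 0.0616 and 0.0263 scaled TPM in FIBCL, against 8.10, 9.96 and 15.4 in SCDM, 12.3, 5.29 and 2.76 in SCDM/FGF and 3.48, 3.63 and 3.55 in the spheres. Again no FIBCL library reached 0.2 scaled TPM. Ifi35, which was highest in the spheres and in the first SCDM/FGF library, was at 5.42, 5.44 and 7.12 scaled TPM in FIBCL, against 27.4, 25.6 and 31.4 in SCDM, 44.97, 35.2 and 33.3 in SCDM/FGF and 44.4, 43.05 and 40.5 in the spheres. It fell with a log2 fold change of -2.65 ± 0.12 (SE, adjusted p = 4.5e-09) against spheres.

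Ifi27, a mitochondrial protein and the most abundant of these 9, was at 63.02, 69.7 and 64.9 scaled TPM in FIBCL, against 224, 208 and 230.4 in SCDM, 184, 169 and 140.5 in SCDM/FGF and 166, 156 and 163 in the spheres. Its change of -1.73 ± 0.08 (SE, adjusted p = 5.4e-09) against SCDM left it at a clear level in FIBCL. Cmpk2, a mitochondrial nucleotide kinase, was at 0.742, 0.209 and 0.0526 scaled TPM in FIBCL, against 3.39, 3.76 and 6.49 in SCDM, 6.89, 3.01 and 3.03 in SCDM/FGF and 2.84, 3.31 and 2.84 in the spheres. Its neighbour on chromosome 12, Rsad2, the antiviral enzyme viperin, was at 0.168, 0.185 and 0.158 scaled TPM in FIBCL, against 2.76, 3.69 and 5.70 in SCDM, 5.28, 0.886 and 1.30 in SCDM/FGF and 0.974, 0.804 and 0.756 in the spheres. Cmpk2 fell against all 3 groups, while the difference of Rsad2 from the spheres was -0.66 (95% interval -1.47 to 0.16). For Rsad2 every FIBCL library lay below the lowest sphere library, as it did for 40.4% of all genes. Trim30a, a TRIM protein, was at 0.598, 0.468 and 0.644 scaled TPM in FIBCL, against 6.48, 7.01 and 9.32 in SCDM, 10.6, 4.72 and 5.22 in SCDM/FGF and 1.16, 0.900 and 0.655 in the spheres. Its log2 fold change was -2.44 ± 0.24 (SE, adjusted p = 2.4e-06) against SCDM, and its difference from the spheres was -0.27 (95% interval -0.80 to 0.25).

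**Figure D4:**
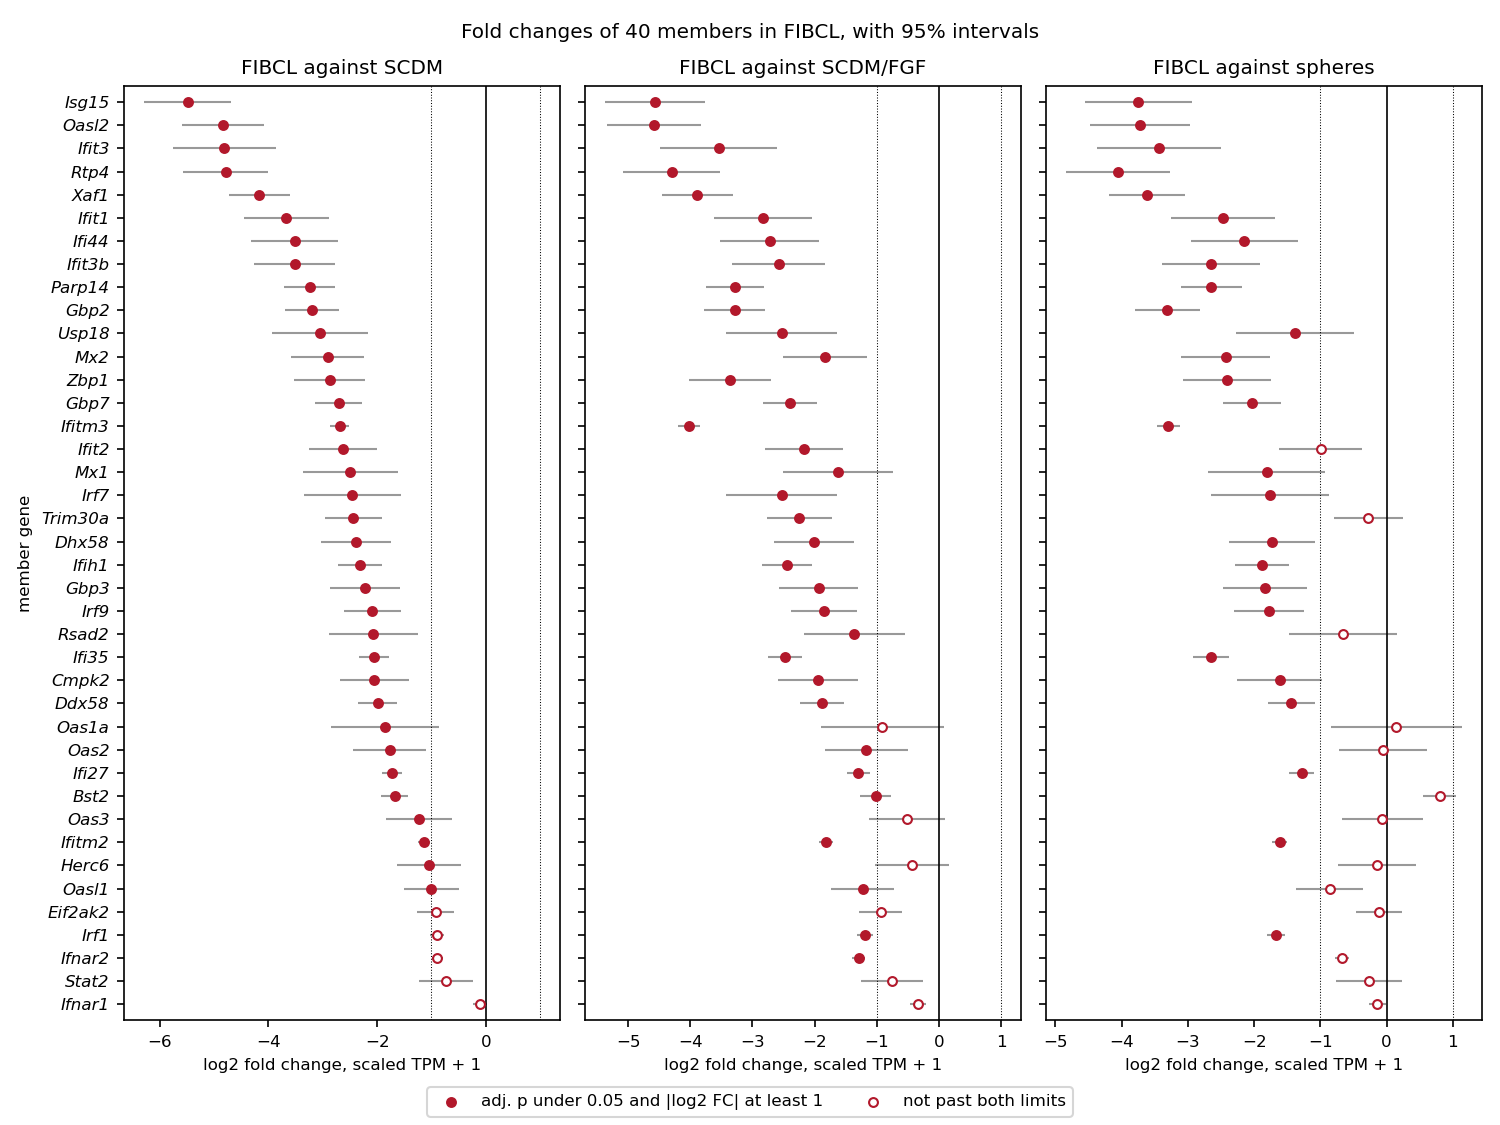
Log2 fold change of scaled TPM + 1 (x) of each member (y, in the order of the first panel) in FIBCL against SCDM, SCDM/FGF and spheres, with 95% intervals as bars, filled points for members past both limits and dotted lines at the limit of 1. The filled points number 35, 34 and 27, all at the lower side, and Bst2 lies above 0 against spheres. Ifit3b, listed at 0 in FIBCL, is drawn at the value that the added 1 gives.

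The control media were then compared with the spheres they came from. In SCDM, 13 members were higher and 0 lower, where 6.94% of all genes were called higher and 5.46% lower, and the median log2 fold change was 0.67 (-0.01 over all genes). The highest on the scale of scaled TPM + 1 was Bst2 with a log2 fold change of 2.47 ± 0.11 (SE, adjusted p = 1.3e-08), followed by Trim30a with 2.17 ± 0.24 (SE, adjusted p = 1.6e-05) and Oas1a with 2.01 ± 0.45 (SE, adjusted p = 0.0032). In all, 4 of the 5 OAS members (Oas1a, Oas2, Oas3 and Oasl2), 3 of the 4 IFIT members (Ifit1, Ifit2 and Ifit3), Isg15, Usp18, Ifi44, Rsad2, Bst2 and Trim30a were called. Of these, Oas2 and Oas3 reached 1 TPM only in SCDM and SCDM/FGF libraries. Oas1a, Rsad2 and Trim30a also needed those libraries to pass the limit on low values. The calls of all these genes lend no weight of their own. The log2 fold change was 1.73 ± 0.37 (SE, adjusted p = 0.0021) for Isg15, 1.67 ± 0.40 (SE, adjusted p = 0.0049) for Usp18 and 1.64 ± 0.28 (SE, adjusted p = 0.00053) for Ifit2. None of the GTPases, sensors, receptor chains or transcription factors passed both limits. The log2 fold changes of Irf1 (-0.78), Ifitm3 (-0.61), Ifi35 (-0.59) and Ifitm2 (-0.48) were below 0, and the SCDM libraries of these 4 lay under all the sphere libraries, as for 30.3% of all genes, while 27 members lay above them without overlap, as for 28.2% of all genes. Without the third SCDM library, which was highest in its group for 33 of 40 members against 31.6% of all genes, 9 members were called, all higher, beside 6.60% of all genes. The macrophage markers moved alongside, 15 of 16 being higher in SCDM than in the spheres and 0 lower, and their part in the rise was not tested.

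In SCDM/FGF, 5 members were higher than in the spheres and 0 lower, beside 7.39% of all genes called higher and 4.73% lower, and the median was 0.41 (-0.02 over all genes). These were Trim30a (log2 fold change 1.98 ± 0.24 SE, adjusted p = 3.5e-05), Bst2 (log2 fold change 1.82 ± 0.11 SE, adjusted p = 1.6e-07), Ifit2 (log2 fold change 1.17 ± 0.28 SE, adjusted p = 0.005), Usp18 (log2 fold change 1.15 ± 0.40 SE, adjusted p = 0.034) and Oas2 (log2 fold change 1.12 ± 0.30 SE, adjusted p = 0.0094). The first SCDM/FGF library decided part of this count: without it, Trim30a (1.66) and Bst2 (1.77) alone were called, beside 7.11% of all genes called higher. Without the third SCDM/FGF library, 11 were called, all higher, beside 7.25% of all genes. Trim30a and Oas2 passed the limit on low values only with the help of SCDM and SCDM/FGF libraries, so their calls lend no weight of their own. All 16 macrophage markers were higher in SCDM/FGF than in the spheres.

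The 3 SCDM/FGF libraries differed among themselves in the members more than in other genes. The first was the highest of the 3 for 36 of 40 members, against 37.4% of all genes, and its median log2 ratio to the mean of the other two was 0.96 over the members and 0.007 over all genes. In 18 members it was at least 2-fold above that mean, on the scale of scaled TPM + 1, which held for 0.918% of all genes. These 18 made up part of 147 such genes, a further 7 of which were in a list of 68 other interferon-stimulated genes. Isg15 stood at 105, 36.02 and 31.8 in the 3 libraries, Oasl2 at 50.8, 20.5 and 16.2 and Ifit3 at 34.996, 8.92 and 9.49. By contrast, Ifitm3 (1489.5, 1387 and 1344), Ifitm2 (1348, 1320.0 and 1365) and Irf1 (29.1, 29.5 and 28.3) were close in all 3. Macrophage markers summed to 2626, 2427 and 2425 scaled TPM in these libraries, and their part in the difference was not tested. The added 1 holds such ratios down at low levels. On scaled TPM alone, among members whose other two libraries averaged 1 or more, the first SCDM/FGF library was at least 2-fold above them in 21 of 38, where this held for 0.948% of all such genes. By the same count this held for 0 of 38 to 40 members in each SCDM library and for 1 of 36 in the second sphere library. In FIBCL it held for 0, but only 17 or 18 members reached that level, and below it single FIBCL libraries stood far above the other two, such as Mx1 in the second (18.7-fold) and Cmpk2 in the first (5.66-fold).

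**Figure D5:**
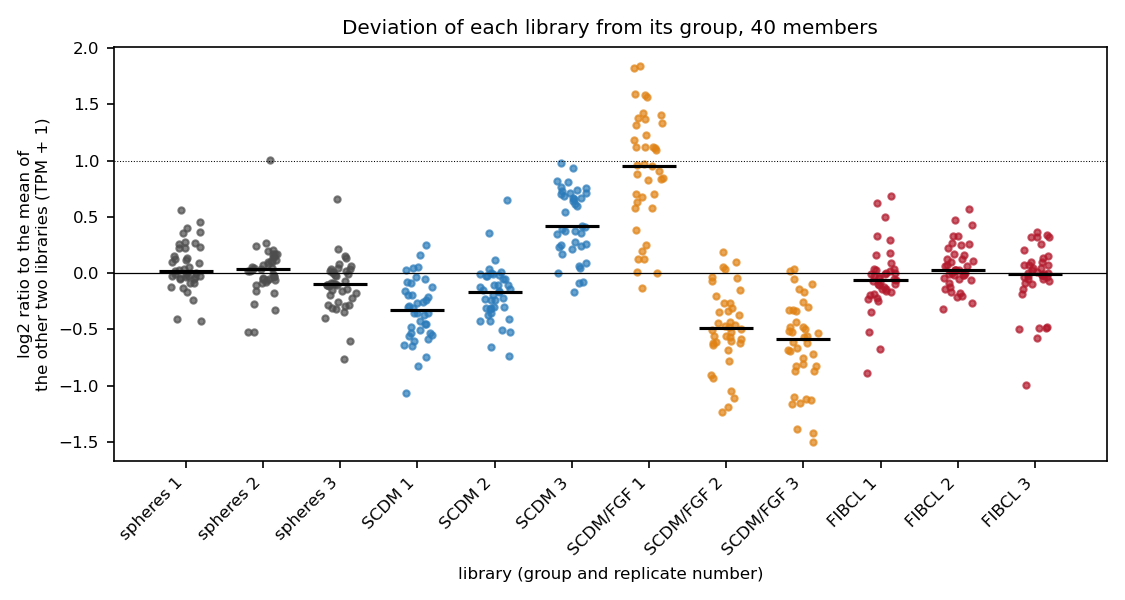
Log2 ratio of each library to the mean of the other two libraries of its group (y, scaled TPM + 1) for the 40 members, with 1 point per member and a black bar at the median, for the 12 libraries (x). The first SCDM/FGF library has a median of 0.96, the last SCDM library one of 0.41, and the spheres and FIBCL libraries have medians between -0.10 and 0.03. Low levels, as in FIBCL, are drawn near 0 because of the added 1.

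Addition of bFGF to SCDM moved few members past the limits. Against SCDM, SCDM/FGF had 1 member higher and 2 lower, with 5.73% of all genes called higher and 4.04% lower, and a median over the members of -0.28 (-0.02 over all genes), so that the members' share was near that of all genes. The higher one was Ifitm3, with a log2 fold change of 1.33 ± 0.08 (SE, adjusted p = 1.3e-07). The lower ones were Ifit3, with -1.27 ± 0.43 (SE, adjusted p = 0.033), and Mx2, with -1.07 ± 0.31 (SE, adjusted p = 0.015). Without the first SCDM/FGF library, 12 members were called, 1 higher and 11 lower, where 5.36% of all genes were called higher and 4.29% lower. The lower ones, with their log2 fold changes, were Ifit3 (-1.87), Oas1a (-1.56), Isg15 (-1.45), Ifit3b (-1.38), Mx2 (-1.38), Ifit1 (-1.30), Ifi44 (-1.27), Mx1 (-1.26), Rsad2 (-1.23), Usp18 (-1.05) and Oas2 (-1.01). Without the third SCDM library 1 member was called, higher, beside 5.78% of all genes called higher and 3.82% lower. Without the third SCDM/FGF library 1 was also called, higher, beside 5.54% and 3.99%. Without the first SCDM library 6 were called, 1 higher and the rest lower, beside 5.88% and 3.88%. Ifitm3 stayed higher without the first SCDM/FGF library (1.29) and without the third SCDM library (1.38).

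Other genes of the pathway, in lists set beside the members, were read in the same fit. All these lists, the other interferon-stimulated genes included, were chosen with earlier results of these data known. They are not an independent check on the members. The 21 interferon ligands were found, but 0 passed the limit on low values, their sum being at most 1.26 scaled TPM in any library, and Ifnb1, the interferon beta gene, was listed at 0 in all 12. Of 18 tested receptor and signalling genes, 1 was higher and 4 lower in FIBCL than in SCDM, beside 13.2% and 16.2% of all genes. The median was -0.14 (-0.07 over all genes), so these 18 as a set stood close to all genes. Among those that fell, given with their log2 fold changes, were Ptpn6 (-3.50), a phosphatase of blood cells, Irf8 (-1.79), a factor of the myeloid lineage, and Ifngr1 (-1.03), a chain of the interferon gamma receptor, and Socs3 (1.07), an inhibitor of cytokine signalling, rose. Of 19 nucleic acid sensing genes, 0 were higher and 8 lower, beside the same shares of all genes, with a median of -0.72. Among the 8 were Tlr7 (-3.14), an endosomal RNA receptor, Sting1 (-2.62), the adaptor of DNA sensing, and Samhd1 (-2.10), which degrades nucleotides.

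Among 66 tested genes in a list of other interferon-stimulated genes, 52 were lower and 1 was higher in FIBCL than in SCDM, with a median of -2.0. Of all genes, 16.2% were lower and 13.2% higher. Against the spheres 37 of the 66 were lower and 2 higher in FIBCL, beside 15.5% and 12.5% of all genes. The lowest log2 fold change was that of Ifi27l2a, which was listed at 0 in all FIBCL libraries against 34.9, 31.6 and 45.9 scaled TPM in SCDM. Uba7, the enzyme that activates ISG15, was at 0.0239, 0.431 and 0.473 scaled TPM in FIBCL, against 27.03, 36.7 and 27.7 in SCDM, 34.8, 27.9 and 22.7 in SCDM/FGF and 41.1, 33.5 and 37.7 in the spheres. Its log2 fold change was -4.59 ± 0.18 (SE, adjusted p = 9.6e-10) against SCDM. Ifitm1, a neighbour of Ifitm2 and Ifitm3, was at 1.45, 1.06 and 0 scaled TPM in FIBCL, against 21.5, 21.6 and 21.4 in SCDM, 812, 679 and 669 in SCDM/FGF and 585, 620.4 and 570.0 in the spheres. It was thus low in SCDM as well as in FIBCL, and it was higher in SCDM/FGF than in SCDM, with a log2 fold change of 5.00 ± 0.25 (SE, adjusted p = 2.8e-08), the direction that Ifitm3 took. The gene that rose in FIBCL was Nlrc5, a regulator of MHC class I genes, at 8.91, 13.5 and 12.1 in FIBCL and 3.29, 3.92 and 4.12 in SCDM (log2 fold change 1.38 ± 0.16 SE, adjusted p = 1.3e-05), while its sphere libraries were at 11.8, 9.41 and 8.71. Against the spheres, 18 of the 66 genes were higher and 5 lower in SCDM, beside 6.94% and 5.46% of all genes.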

How the data were processed

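Poly(A) RNA was sequenced in 12 libraries. The authors used SeqPrep and Sickle for trimming and TopHat for alignment, and the submitters' processing notes also name Cufflinks and RSEM. The authors deposited TPM for 55487 genes, although their methods speak of fragments per kilobase. The build and annotation are not given in the sources used here. TPM keep no read numbers, so the depth is unknown and no counting interval was computed.

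Of the gene identifiers, 55141 were found in GENCODE M21 (GRCm38), where all 40 members had the same symbol. A gene needed 1 TPM or more in 3 or more libraries, which 16016 passed. Each library was divided by a trimmed mean of log2 ratios to the average library (30%, as a fraction 0.3, from each end) over the 8434 genes that reached 5 TPM everywhere. Log2(scaled TPM + 1) was fitted with limma 3.58.1 (R 4.3.3) in 1 model of the 4 groups, with variances that follow the mean and Benjamini-Hochberg adjustment within each of 6 comparisons. The model was tested on simulated data.

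The members and gene lists were chosen with earlier results of these data known. All 40 members are named, with values per library for those with a mean of at least 5 scaled TPM or a called log2 fold change of at least 2, and from the other lists 1 preset gene, which is not reported here, and the 3 highest and 3 lowest changed genes may be named. Promoters are named where they hold an ISRE core, at most 8. Alternatives covered the scaling, the pseudocount, the filter, the limit on size, the groups entered, a replicate block and each library left out. Python 3.11.15, pandas 2.3.3 and matplotlib 3.10.9 were used for tables and plots.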

Additional observations from a re-analysis of the deposited data

How the results depend on the processing

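No member changed direction among those called in a comparison: of 1737 values recomputed under the alternatives, 1674 stayed past the threshold and 63 did not, mainly under the stricter limit on size or without 1 library. The counts of members changed in FIBCL stayed within 30 to 39 against SCDM, 27 to 37 against SCDM/FGF and 24 to 32 against spheres. The 32 came with the adjusted p alone, by which 31 were lower and 1, Bst2, was higher. Leaving out 1 library gave 33 to 35, 30 to 36 and 27 to 28, all lower. The counts between the other groups moved more. For SCDM against spheres (13), the adjusted p alone gave 24, of which 20 were higher and 4 lower, and a limit of 1.5 gave 7, all higher. Leaving out 1 library gave 9 to 14, all higher, beside 6.60% to 7.07% of all genes called higher. For SCDM/FGF against spheres (5), the adjusted p alone gave 15, of which 14 were higher and 1 lower, a limit of 1.5 gave 2, and no rescaling gave 3. Leaving out 1 library gave 2 to 11, all higher, beside 7% to 7.59% of all genes called higher. For SCDM/FGF against SCDM (3), the adjusted p alone gave 11, of which 6 were higher and 5 lower, and a limit of 1.5 gave 0. No rescaling gave 5, and a fit of only the 2 groups compared gave 1. Leaving out 1 library gave 1 to 12, with 1 higher each time, beside 5.36% to 5.88% of all genes called higher and 3.79% to 4.29% lower. The shares of all genes past the adjusted p alone are not given here, so the counts by that limit cannot be set against them. The cause was not tested. Without rescaling, the median over all genes moved to -0.40, -0.31 and -0.51 for FIBCL against SCDM, SCDM/FGF and spheres, and to -0.13, -0.22 and -0.08 for SCDM against spheres, SCDM/FGF against spheres and SCDM/FGF against SCDM.

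Same-numbered libraries did not deviate together (18 pairs, r from -0.12 to 0.098), so the numbers give no pairing. With a replicate block the counts were 35, 34, 27, 13, 5 and 2 in the order of the comparisons above. Without read counts, levels under about 1 TPM cannot be given an error from counting. Groups of 3 are too small for a test of single outlying libraries.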
